A study of Glycine max with 12 samples.

Results

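Genes of iron, zinc, copper and manganese handling were followed in soybean (Glycine max) roots exposed to aluminium. They are the main-category probe sets whose annotated gene title names a zinc transporter, metal tolerance protein, nicotianamine enzyme or carrier, ferritin, ferric protein, vacuolar iron transporter, metallothionein, metal transporter or copper transporter. This text rule found 114 of 66195 main probe sets, for 112 gene identifiers, and used no measured value. Roots of the Al-sensitive variety Guangfengmaliaodu (GF) and the Al-tolerant variety KF were measured on 12 Affymetrix arrays. Seedlings of each variety stood in 0.5 mM CaCl2 at pH 4.3 for 6, 12 or 24 h, either with AlCl3 at 25 µM (Al) or with none (control). Every group shared the acid calcium solution, which held no other nutrient that the labels name, so a control is a root in this solution and not in full nutrient medium. Each variety, treatment and time had 1 array and no condition was repeated.

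Plant roots take up iron, zinc, manganese and copper through membrane carriers and then bind, store or pass on what they take up. Carriers of the ZIP, Nramp and copper transporter families bring metal into the cytosol, and metal tolerance proteins and vacuolar iron transporters move it out of the cytosol, often into the vacuole. Ferritin stores iron inside a protein shell in plastids, nicotianamine binds metals for transport, and metallothioneins are small cysteine-rich proteins that bind zinc and copper. Plant ferritin genes are known to be switched on by excess iron.

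Values are the authors' normalized intensities in linear units, and effects are log2 ratios of Al over control with the standard error of limma after ±. An intensity can be compared between arrays for 1 probe set and not between probe sets. A probe set was called when its p, adjusted by the Benjamini-Hochberg method over all 49646 probe sets tested, was below 0.05. The spread behind these p-values is the variation of an effect between times or, where 24 h is set against 6 h, between varieties, since no condition was repeated. For an Al effect n counts pairs of 1 Al and 1 control array, and for a variety difference pairs of 1 KF and 1 GF array. The filter on dim probe sets left 92 of the 114 metal probe sets for testing. The other 22 had intensities between 1.47 and 3.55 on every array and are described below without a test.

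Most of the metal genes gave weak signal. The 95th percentile of 23 background probe sets, which match no genome and are not matched for base composition, lay between 29.3 and 72.8 and was highest in the GF 24 h control array. Of the 114 probe sets, 96 lay under it on every array and 4 above it on every array. On single arrays 7 to 14 of the 114 lay above it, beside 2477 to 8182 of all 66195 main probe sets. Weak signal was thus common over the whole array and not particular to the metal genes. Of the 92 tested, 39 were above the median of the background probe sets on all arrays and 22 on none. The KF 24 h Al array stood apart, with a mean correlation of 0.779 with the other arrays across probe sets. The GF 24 h Al array was next lowest at 0.877, and the rest lay between 0.917 and 0.933. The median log2 ratio of 232 positive control probe sets was below 0 in all pairs (-1.06 to -0.31), as was that of 855 intron probe sets (-0.37 to -0.11), and the part of these shifts in the falls described here was not tested. The positive controls were lowest in the 24 h pairs, at -1.06 in KF and -0.71 in GF. The summed intensity of 64 probe sets titled Casparian strip or CASP-like, listed for root endodermis and exodermis, ran from 666 to 1617 over the arrays. From control to Al it went from 985 to 1354, 964 to 1617 and 1057 to 930 in GF at 6, 12 and 24 h. In KF it went from 1269 to 1093, 968 to 1454 and 970 to 666. The sum of 22 seed storage probe sets ran from 50.8 to 56.5. The sum of 8 root hair and root cap probe sets was 217 to 269 in control arrays and 166 to 271 with Al, and went from 256 to 166 in the KF 24 h pair. That of 54 photosynthesis probe sets went from 486 to 344 in the same pair and from 594 to 416 in the GF 24 h pair. It was higher with Al only in the GF 12 h pair, from 550 to 570. The part of these markers in the falls was not tested.

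The first comparison asked which metal genes changed with Al over both varieties. Lower were 3 of 6 ferritin probe sets tested, 1 of 7 vacuolar iron transporters, 1 Nramp carrier, 1 zinc transporter and 1 metal tolerance protein. A second Nramp carrier, a second metal tolerance protein, a metallothionein, a citrate carrier-like gene and a dim vacuolar iron transporter homolog were higher. In all, 5 of the 92 rose, 7 fell and 80 did not pass. The share called was 13 percent, against 13.8 percent of all probe sets tested (6.59 percent higher and 7.19 percent lower), so the metal genes as a whole were called about as often as the array at large. Their median log2 ratio was -0.07, against -0.04 for all probe sets tested. Among the 92, 7 were higher in 6 of 6 pairs (7.61 percent, against 10.7 percent of all) and 15 lower in 6 of 6 (16.3 percent, against 14.2 percent). Of the 12 called probe sets 11 had the same sign in 6 of 6 pairs. That is no added evidence, since the call itself weighs the mean ratio against the spread between these pairs. Among the 12 called, 8 lay under the background percentile on every array. Fewer cells of a type and less RNA per cell cannot be told apart in whole roots.

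The count of 12 depended on single pairs and times. When the GF pair of 6, 12 or 24 h was left out, the count was 3, 1 and 2, while 5.37, 4.14 and 5.04 percent of all probe sets were called. When the KF pair of 6, 12 or 24 h was left out, it was 9, 1 and 5, beside 15.1, 3.84 and 10.7 percent of all. It was 3, 0 and 6 without all 6 h, all 12 h and all 24 h arrays, with 17 metal probe sets at an unadjusted p below 0.05 in the fit without 12 h (limma). Of all probe sets 5.47, 0.187 and 13.2 percent were called in these fits, so the calls of the whole array moved as well. After cyclic loess normalization it was again 12, of which 9 were shared, and the split was 8 higher and 4 lower in place of 5 and 7.

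**Figure D1:**
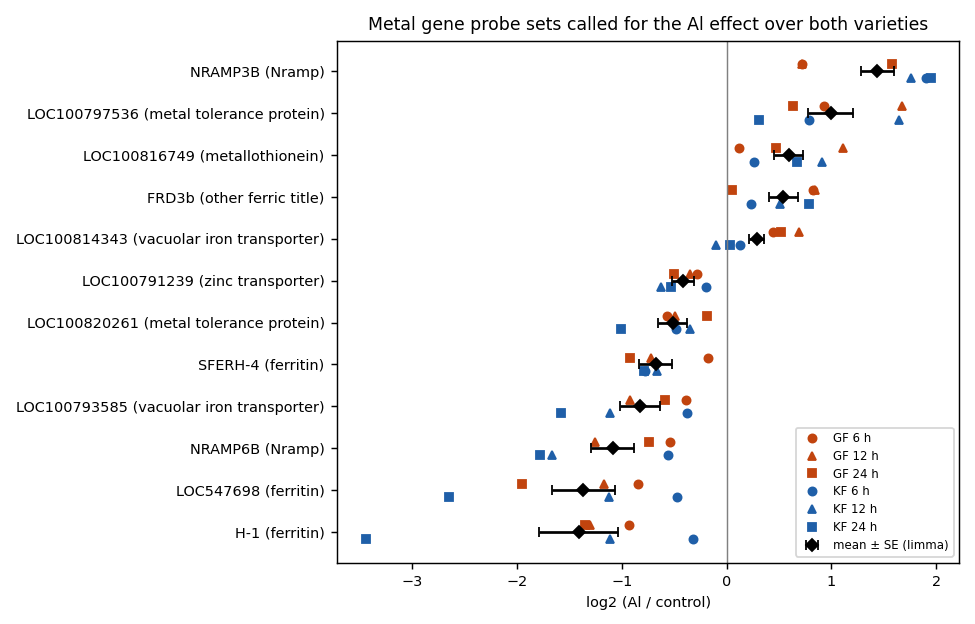
Log2 ratio of Al over control (horizontal axis) for the 12 metal gene probe sets called over both varieties. Small symbols are single pairs of arrays, coloured by variety and shaped by time, and black diamonds with bars are the mean ± SE of limma. All 6 symbols lie on one side of 0 except for LOC100814343, where the KF 12 h pair is at -0.10.

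Ferritin, the iron store, gave the deepest falls. Of 9 ferritin probe sets 6 were tested, 3 fell, 0 rose and 3 did not pass. H-1, annotated as ferritin light chain (GLYMA18G43650, chromosome 18, 53224505 to 53227234), exceeded the background percentile on 11 arrays, and its probes can bind transcripts of several genes. In GF its intensity was 155, 292 and 170 in control roots at 6, 12 and 24 h and 81.4, 118 and 66.5 with Al. In KF it was 172, 323 and 231 in control roots and 137, 150 and 21.2 with Al. Every Al array lay below its own control, and no Al array of either variety reached the lowest control array of that variety. The mean log2 ratio was -1.41 ± 0.38 (n = 6, limma adjusted p = 0.0486), with single pairs from -3.45 in KF at 24 h to -0.32 in KF at 6 h. The call was kept in 2 of 6 fits without 1 pair (those that left out KF at 6 or at 24 h), with adjusted p from 0.0173 to 0.134 and ratios from -1.74 to -0.96, with the smallest ratio once KF at 24 h was left out.

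LOC547698, a second ferritin gene (GLYMA07G19060, chromosome 7, 18973781 to 18976704), behaved alike in sign. Its GF intensities were 50.7, 79.4 and 56.4 in control roots and 28.2, 35.4 and 14.5 with Al at 6, 12 and 24 h. Its KF intensities were 29.3, 64.1 and 45.2 in control roots and 21.1, 29.4 and 7.22 with Al. GF control and Al roots did not overlap, while in KF the 12 h Al array (29.4) just exceeded the 6 h control array (29.3). The mean log2 ratio was -1.37 ± 0.30 (n = 6, limma adjusted p = 0.029), and the call was kept in 2 of 6 fits without 1 pair, those that left out KF at 6 or at 24 h (adjusted p 0.0208 to 0.0919). The pair ratios ran from -0.47 in KF at 6 h to -2.64 in KF at 24 h.

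SFERH-4, another ferritin gene (GLYMA14G06160, chromosome 14, 4456720 to 4459292), fell less. GF control roots had 42.9, 41.2 and 27.8 and GF Al roots 37.9, 25.0 and 14.6. KF control roots had 48.1, 42.9 and 31.4 and KF Al roots 28.1, 27.1 and 18.1. Each Al array was below the control of its own time, the KF groups did not overlap, and the GF groups did. The mean log2 ratio was -0.68 ± 0.16 (n = 6, limma adjusted p = 0.0338), which none of the 6 fits without 1 pair called (adjusted p 0.0518 to 0.11). After cyclic loess normalization its adjusted p was 0.0697.

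The remaining ferritin genes were dim. SFERH-3 (log2 ratio 0.08), LOC100811278 (-0.17) and LOC100778273 (0.14) were tested and did not pass. LOC100778273, a ferritin-2-like gene, was at 6.02 in GF at 24 h with Al and between 2.16 and 3.10 on the other 11 arrays. SFERH-2, FER2-1 and LOC100810000 were not tested, and the highest of their values was 3.55, for SFERH-2 in the GF 24 h Al array.

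Vacuolar iron transporters load iron into the vacuole, the other main store. Of 13 probe sets 7 were tested, 1 fell, 1 rose and 5 did not pass. LOC100793585, vacuolar iron transporter 1-like (GLYMA05G34430, chromosome 5, 38779392 to 38782030), went from 43.1, 42.2 and 21.9 in GF control roots to 33.0, 22.2 and 14.5 with Al. In KF it went from 31.5, 35.5 and 27.0 to 24.3, 16.4 and 9.03. Al arrays were lower at every time in both varieties, and the KF groups did not overlap. The mean log2 ratio was -0.83 ± 0.19 (n = 6, limma adjusted p = 0.034), kept only without the KF 6 h pair among 6 fits without 1 pair (adjusted p 0.0208 to 0.113). The second vacuolar iron transporter 1-like gene, LOC100814227, was at -0.43 and did not pass (adjusted p = 0.0806).

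The riser of this class was small and dim. LOC100814343, vacuolar iron transporter homolog 4-like (GLYMA20G30580, chromosome 20, 39267815 to 39268411), was at 2.22, 2.63 and 2.82 in GF control roots and 3.03, 4.24 and 4.03 with Al. In KF it was at 2.53, 3.04 and 3.01 in control roots and 2.78, 2.83 and 3.08 with Al. The GF groups did not overlap and the KF groups did. The ratio averaged over pairs was 0.29 ± 0.07 (n = 6, higher in 5 of 6 pairs, limma adjusted p = 0.0464), with 0.55 ± 0.11 in GF (adjusted p = 0.0758) and 0.02 ± 0.11 in KF (adjusted p = 0.928). None of 6 fits without 1 pair called it (adjusted p 0.0912 to 0.129), and the difference between varieties was not called (-0.53 ± 0.15, adjusted p = 0.953). The 6 probe sets of this class left out by the filter, for 5 genes, lay between 1.56 and 2.90.

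**Figure D2:**
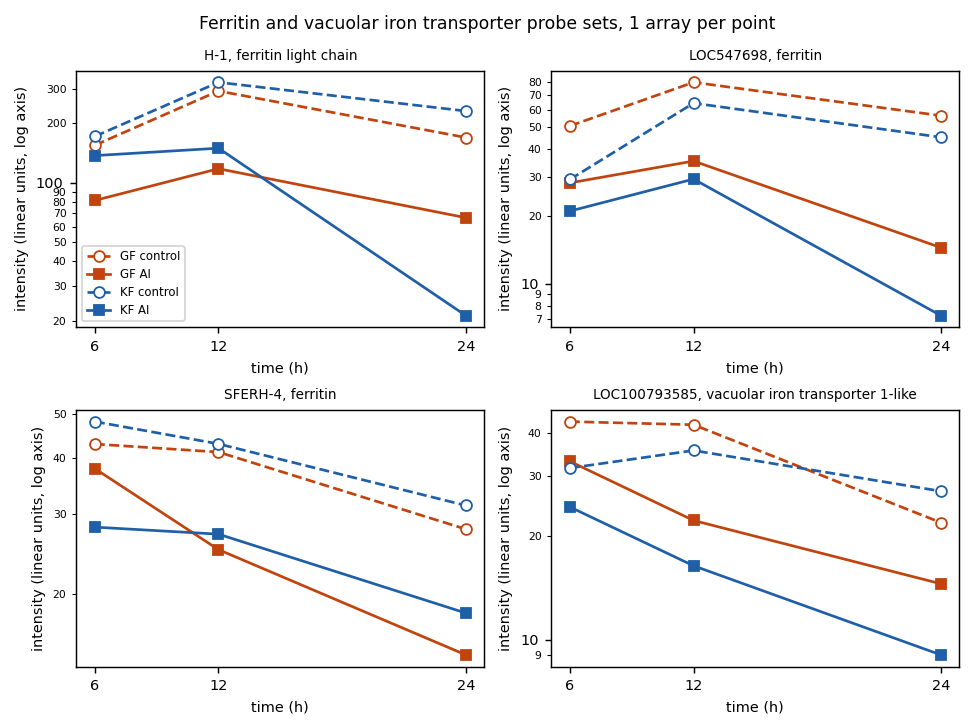
Intensity (linear units, log axis) over time in h for 3 ferritin probe sets and LOC100793585, vacuolar iron transporter 1-like. Dashed lines with open circles are control roots and solid lines with filled squares Al roots, with GF in orange and KF in blue and 1 array per point. Each Al point lies below the control point of the same variety and time, and the lowest value of H-1, LOC547698 and LOC100793585 is KF with Al at 24 h (21.2, 7.22 and 9.03).

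Nramp proteins carry divalent iron and manganese across the plasma membrane or out of the vacuole. Of 12 probe sets 11 were tested, 1 rose, 1 fell and 9 did not pass. NRAMP3B, titled Nramp2-like on the array (GLYMA06G04720, chromosome 6, 3335648 to 3339588), had the largest rise of all metal probe sets called. GF control roots had 5.90, 4.83 and 6.56 and GF Al roots 9.72, 7.93 and 19.6 at 6, 12 and 24 h. KF control roots had 5.78, 6.70 and 5.88 and KF Al roots 21.5, 22.6 and 22.7. The groups did not overlap in either variety, and the KF Al arrays were already high at 6 h, while the highest GF value came at 24 h.

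For NRAMP3B the mean log2 ratio was 1.44 ± 0.16 (n = 6, limma adjusted p = 0.0035). The call was kept in 6 of 6 fits without 1 pair (adjusted p 0.00615 to 0.0214), and was lost without all 12 h arrays (1.54, adjusted p = 0.105). By variety the ratio was 1.0 ± 0.22 in GF (adjusted p = 0.107) and 1.87 ± 0.22 in KF (adjusted p = 0.0079), the latter lost without the KF 12 h pair (adjusted p = 0.0695), without all 6 h arrays (0.0632) and without all 12 h arrays (0.213). The difference between the varieties, 0.86 ± 0.32, was not called (adjusted p = 0.953). Its intensities lay under the background percentile on all arrays and above the background median on all arrays.

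NRAMP6B, Nramp6-like (GLYMA15G00590, chromosome 15, 324281 to 330432), was the faller. GF control roots had 17.7, 18.4 and 8.75 and GF Al roots 12.2, 7.69 and 5.25. KF control roots had 19.6, 24.2 and 16.8 and KF Al roots 13.3, 7.63 and 4.89. The KF groups did not overlap, and in GF the 24 h control array lay among the Al arrays. Averaged over the pairs, the log2 ratio was -1.09 ± 0.20 (n = 6, limma adjusted p = 0.0182), kept in 3 of 6 fits without 1 pair (adjusted p 0.0102 to 0.0723), those that left out GF at 6 h, KF at 6 h and KF at 24 h.

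Other Nramp genes are given for comparison and were picked after their values were seen. NRAMP6A, also titled Nramp6-like, was lower in 6 of 6 pairs without passing (-0.67 ± 0.21, adjusted p = 0.0747). NRAMP3A, titled Nramp2-like as NRAMP3B is, was also lower in 6 of 6 pairs without passing (-0.23 ± 0.13, adjusted p = 0.255), with intensities of 13.6 to 15.4 in control roots and 10.2 to 14.7 with Al. NRAMP4A, of the same title, was at -0.05 (adjusted p = 0.734), and NRAMP4B, the last gene so titled, was not tested. The difference between NRAMP3A and NRAMP3B was not tested. NRAMP1B, Nramp3-like, lay above the background percentile on all arrays at 42.1 to 138.5 and did not pass (-0.20 ± 0.21, adjusted p = 0.563), and its lowest value was KF with Al at 24 h. NRAMP2A, Nramp3-like, was at 6.16 on that array and between 18.3 and 36.5 on the other 11.

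**Figure D3:**
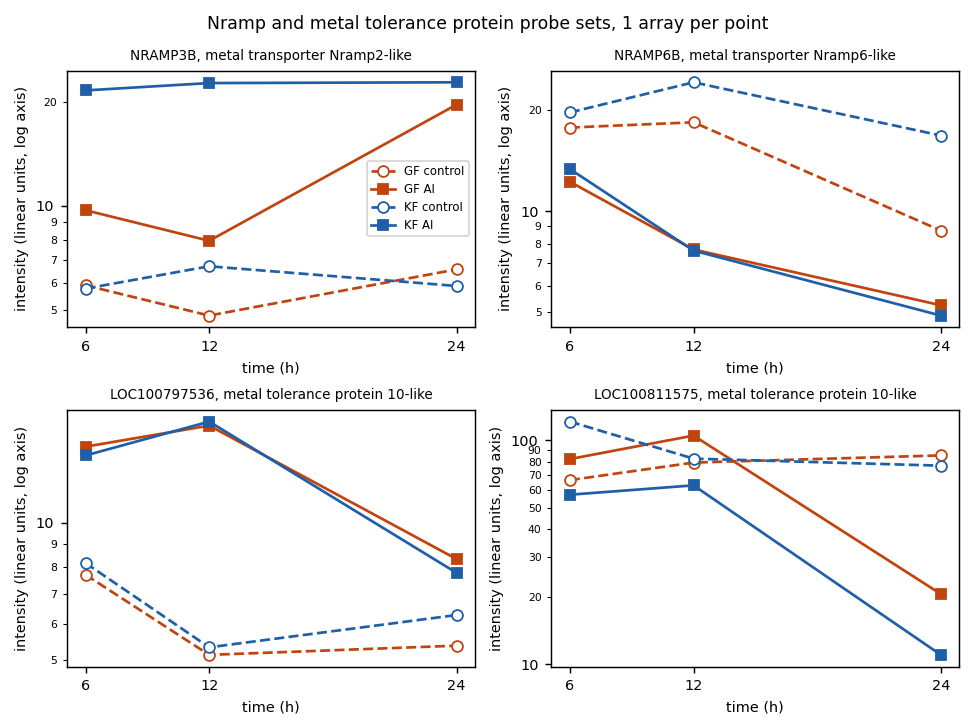
Intensity (linear units, log axis) over time in h for NRAMP3B, NRAMP6B and a pair of metal tolerance protein 10-like genes, LOC100797536 and LOC100811575. Dashed lines with open circles are control roots and solid lines with filled squares Al roots, with GF in orange and KF in blue and 1 array per point. NRAMP3B is at 21.5 to 22.7 in the 3 KF Al arrays, and LOC100811575 drops to 20.5 in GF and 11.0 in KF at 24 h with Al.

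Chelation and reduction genes of the iron pathway did not pass. Nicotianamine synthase makes nicotianamine, and of its 4 probe sets 1 was tested, LOC100814069, at -0.03 ± 0.07 (adjusted p = 0.78) with all values from 1.85 to 2.51. YSL carriers move metal bound to nicotianamine, and of 14 probe sets 12 were tested and 0 called, with 10 of the 12 ratios below 0 (-0.41 to 0.14). Ratios below 0 were common, since only 33 of the 92 metal probe sets and 21117 of all 49646 tested were above 0. The largest YSL ratio was that of LOC100820417, YSL3-like, at -0.41 ± 0.16 (lower in 6 of 6 pairs, adjusted p = 0.138). LOC100799897, YSL6-like (31.1 to 73.1), and LOC100814953, YSL7-like (18.4 to 53.9), exceeded the background percentile on 10 and 6 arrays, and neither passed (adjusted p = 0.716 and 0.352). Both were picked after their values were seen. Of 3 probe sets of ferric reductases, which turn ferric into ferrous iron at membranes, 2 were tested and 0 called, with LOC100807608 at -0.24 ± 0.12 (adjusted p = 0.226).

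The 4 other titles with the word ferric are of mixed kind. FRD3b, named after an Arabidopsis carrier that releases citrate for iron transport (GLYMA09G15550, chromosome 9, 18234113 to 18244097), rose. Its intensities were 3.12, 2.72 and 3.48 in GF control roots and 5.54, 4.88 and 3.61 with Al. In KF they were 3.22, 3.23 and 3.34 in control roots and 3.79, 4.61 and 5.76 with Al. The groups did not overlap in either variety, with the highest GF value at 6 h and the highest KF value at 24 h. All these intensities lay under the background percentile, and 8 of the arrays were above the background median. Over the 6 pairs the log2 ratio was 0.54 ± 0.14 (n = 6, limma adjusted p = 0.0437), kept in 2 of 6 fits without 1 pair, those that left out GF at 24 h or KF at 6 h (adjusted p 0.0357 to 0.134). FLBR, a reductase of leghemoglobin, the oxygen carrier of nodules, ran from 70.8 in KF with Al at 24 h to 265 and did not pass (-0.55 ± 0.24, lower in 6 of 6 pairs, adjusted p = 0.158). A list of 28 nodule probe sets summed to 393 on that same array, to 957 to 1264 on the other Al arrays and to 949 to 1423 in control roots. The part of this list in the value of FLBR was not tested. A pair of neuferricin-like genes, LOC100789028 (-0.48, with probes that can bind several genes) and LOC100786670 (-0.29), did not pass either.

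Zinc transporters of the array include ZIP carriers, which take up zinc and, in some members, iron. Of 22 probe sets 18 were tested, 1 fell, 0 rose and 17 did not pass, with ratios from -0.42 to 0.43. LOC100791239, zinc transporter 2-like (GLYMA18G08760, chromosome 18, 7515288 to 7518066), went from 4.93, 4.98 and 5.14 in GF control roots to 4.06, 3.90 and 3.63 with Al. In KF it went from 5.12, 5.65 and 6.17 to 4.46, 3.65 and 4.28. Control and Al groups did not overlap in either variety. Its log2 ratio averaged -0.41 ± 0.11 (n = 6, limma adjusted p = 0.0429), kept without the KF 6 h pair and lost in the other 5 fits without 1 pair (adjusted p 0.0393 to 0.135). After cyclic loess normalization its adjusted p was 0.0573. The probe set IRT, named as the iron-regulated carriers are and titled zinc transporter 10-like, stayed between 2.14 and 3.14 and was at -0.00 ± 0.09 (adjusted p = 0.985). At the ends of the range, LOC100796321 was at 0.43 ± 0.14 and LOC100795511 at -0.42 ± 0.14. Neither passed (limma adjusted p = 0.0843 and 0.0866).

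Metal tolerance proteins export zinc or manganese from the cytosol. Of 22 probe sets 21 were tested, 1 rose, 1 fell and 19 did not pass, with 10 ratios above and 11 below 0. The riser was LOC100797536, metal tolerance protein 10-like (GLYMA08G17570, chromosome 8, 13052149 to 13056332). GF control roots had 7.70, 5.14 and 5.38 and GF Al roots 14.7, 16.3 and 8.34. KF control roots had 8.17, 5.34 and 6.28 and KF Al roots 14.1, 16.7 and 7.77. The profiles of both varieties were nearly alike, high at 6 and 12 h with Al and lower at 24 h. The GF groups did not overlap, while in KF the 24 h Al array (7.77) lay below the 6 h control array (8.17). The ratio averaged over pairs was 0.99 ± 0.22 (n = 6, limma adjusted p = 0.0287), kept in 2 of 6 fits without 1 pair, those that left out KF at 6 or at 24 h (adjusted p 0.02 to 0.0924).

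Its neighbour was not called. LOC100796996, with the same title, starts at 13045899 and ends 4310 bases away, the array annotation gives both the gene model GLYMA08G17570, and the neighbour's probes can bind several genes. Its ratio was 0.15 ± 0.17 (adjusted p = 0.591), with intensities of 11.9 to 16.3 in control roots and 12.7 to 21.5 with Al. The difference in Al effect between these neighbours was not tested. This neighbour was picked by position, as 1 of 13 pairs of metal probe sets within 100000 bases of each other.

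LOC100820261, metal tolerance protein C4-like (GLYMA07G02280, chromosome 7, 1569263 to 1573979), fell. In GF the control roots had 10.0, 6.68 and 6.15 and GF Al roots 6.76, 4.76 and 5.40, and KF control roots 8.82, 7.37 and 7.96 and KF Al roots 6.33, 5.78 and 3.95. The KF groups did not overlap and the GF groups did. Averaged over the pairs, the log2 ratio was -0.51 ± 0.14 (n = 6, limma adjusted p = 0.0476), which none of 6 fits without 1 pair called (adjusted p 0.066 to 0.136), nor did cyclic loess normalization (0.061). LOC100776339, metal tolerance protein 5-like (81.8 to 203.5), and LOC100785952, metal tolerance protein 4-like (30.7 to 104), exceeded the background percentile on 12 and 11 arrays and were picked after their values were seen. Their ratios of -0.50 ± 0.20 and -0.61 ± 0.17 did not pass (adjusted p = 0.133 and 0.0534). In the other direction LOC100809496, metal tolerance protein C2-like, was higher in 6 of 6 pairs without passing (0.70 ± 0.20, limma adjusted p = 0.0591). It was also picked after its values were seen, and its probes can bind several genes. LOC100802157, metal tolerance protein 10-like, was at 14.5 in GF at 24 h with Al and between 2.63 and 3.66 on the other 11 arrays.

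Copper transporters bring copper into the cell, and 5 of 5 were tested and 0 called. LOC100788354, copper transporter 6-like (GLYMA07G17060, chromosome 7, 16702018 to 16703178), had the largest ratio of the class at -0.25 ± 0.20 (adjusted p = 0.444). Its GF values were 6.26, 5.21 and 6.17 in control roots and 14.5, 6.94 and 4.74 with Al. Its KF values were 8.30, 7.81 and 6.64 in control roots and 4.31, 3.85 and 3.91 with Al. The KF groups did not overlap and the GF groups did. The ratio was 0.41 ± 0.28 in GF (adjusted p = 0.52) and -0.91 ± 0.28 in KF (adjusted p = 0.101), and the difference of -1.32 ± 0.40 was not called (adjusted p = 0.953).

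Metallothioneins bind metals through cysteine. Of 6 probe sets 5 were tested, 1 rose and 4 did not pass. LOC100816749, metallothionein-like protein 2-like (GLYMA18G39690, chromosome 18, 47763183 to 47764253), was at 2.50, 2.53 and 2.20 in GF control roots and 2.72, 5.46 and 3.05 with Al. In KF it was at 2.07, 2.10 and 2.26 in control roots and 2.48, 3.96 and 3.61 with Al. Groups did not overlap in either variety, and the highest value of each variety was at 12 h with Al. Over the 6 pairs the log2 ratio was 0.59 ± 0.14 (n = 6, limma adjusted p = 0.0362), kept in 2 of 6 fits without 1 pair, those that left out GF at 6 h or KF at 6 h (adjusted p 0.0349 to 0.111), and its level was above the background median on 2 arrays.

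MET2, a type 2 metallothionein (GLYMA07G15800, chromosome 7, 15490532 to 15491544), exceeded the background percentile on 8 arrays and was picked after its values were seen. In GF the control roots had 50.1, 63.5 and 34.7 and GF Al roots 32.1, 77.8 and 45.6. KF control roots had 30.7, 40.3 and 13.3 and KF Al roots 37.0, 55.2 and 55.2. The groups overlapped in both varieties. The ratio was 0.47 ± 0.28 (higher in 5 of 6 pairs) and did not pass (adjusted p = 0.293), with its largest pair ratio, 2.05, in KF at 24 h. PGMPM19, titled metallothionein-II, was higher in 6 of 6 pairs without passing (0.33 ± 0.09, limma adjusted p = 0.0524). It was also picked after its values were seen, and it lay under the background percentile on every array.

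**Figure D4:**
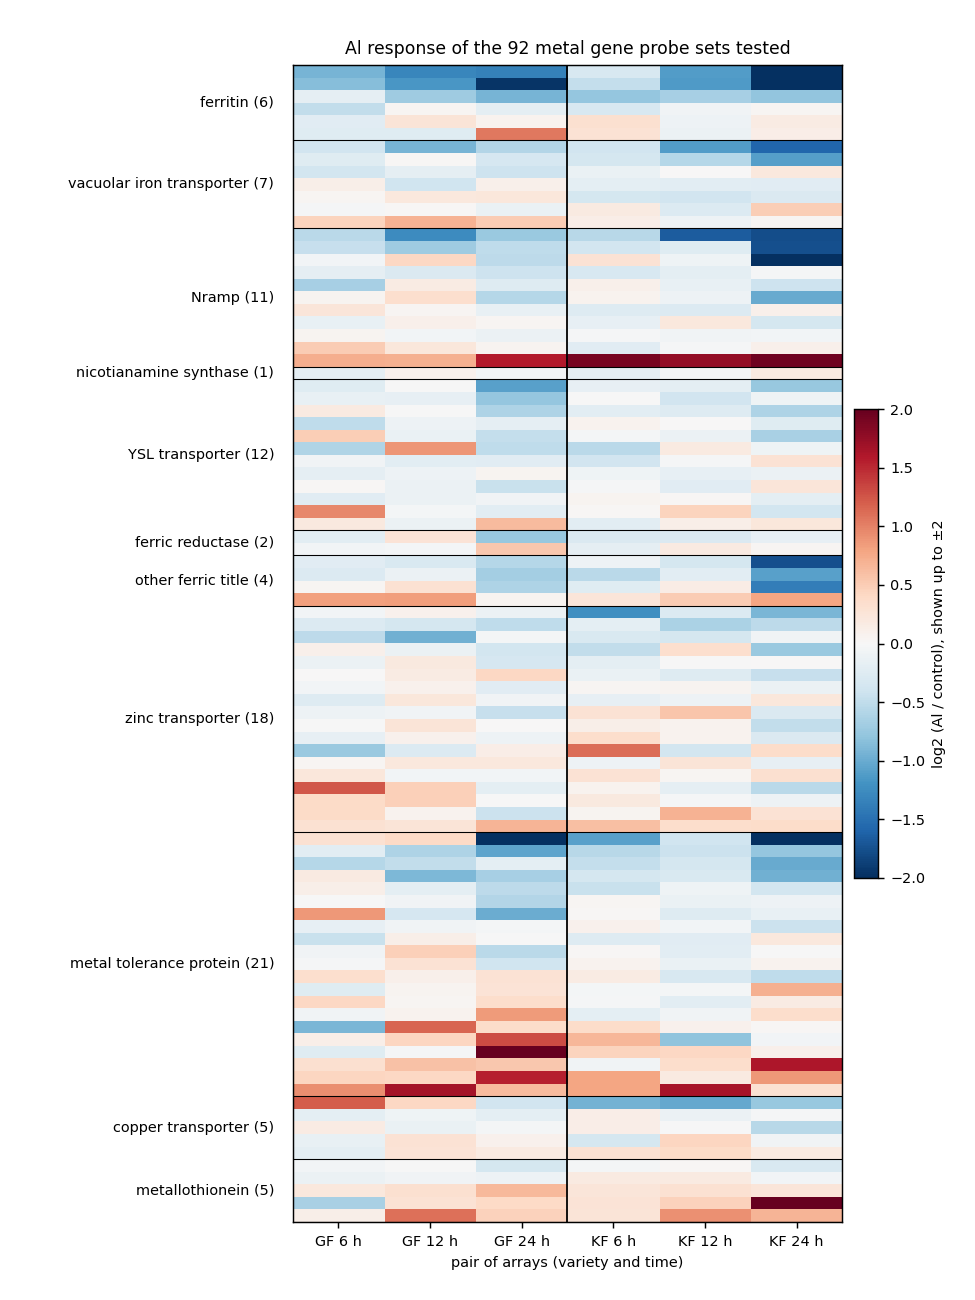
Log2 ratio of Al over control for the 92 metal gene probe sets tested (rows, grouped by the role in their title with the number of rows in brackets) in the 6 pairs of arrays (columns). Red is higher with Al and blue lower, with colours held at ±2. The row of NRAMP3B is red in all 6 columns, and the darkest blue cells, for ferritin, Nramp and metal tolerance protein genes, are in the 24 h columns (H-1 is at -3.45 in KF).

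How far the metal genes moved at each time was counted within single pairs, without a test. In GF, 2 of the 92 differed at least 2-fold at 6 h, 6 at 12 h and 10 at 24 h, shares of 2.17, 6.52 and 10.9 percent. All probe sets tested gave 5.29, 7.43 and 14.3 percent in these pairs. In KF the counts were 4, 7 and 16, or 4.35, 7.61 and 17.4 percent, against 6.05, 11.6 and 25.3 percent of all probe sets. Both counts grew with time, and the metal genes' share lay under that of the array in all 6 pairs. The 24 h Al arrays of both varieties had the lowest mean correlations with the other arrays, and the part of this in the counts was not tested. At 24 h in KF, 13 metal probe sets were at least 2-fold lower (14.1 percent, against 14 percent of all) and 3 at least 2-fold higher (3.26 percent, against 11.3 percent).

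**Figure D5:**
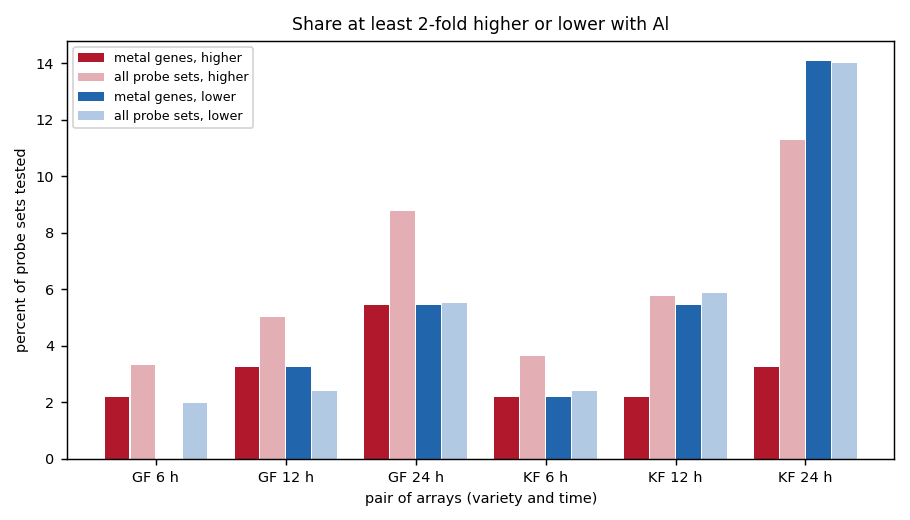
Percent of probe sets at least 2-fold higher (red) or lower (blue) with Al in each pair of arrays, for the 92 metal gene probe sets tested (dark bars) and all 49646 tested (pale bars). In KF at 24 h the dark and pale blue bars stand at 14.1 and 14 percent, and the dark and pale red bars at 3.26 and 11.3 percent.

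The change of the Al effect from 6 to 24 h was called for 0 of the 92 metal probe sets (limma, 11 or 12 percent at an unadjusted p below 0.05), against 2.12 percent of all (16.3 percent unadjusted). The largest difference was that of LOC100811575, metal tolerance protein 10-like (GLYMA09G15150, chromosome 9, 17536941 to 17543046). In GF the control roots had 66.3, 79.4 and 85.5 and GF Al roots 82.3, 105 and 20.5, and KF control roots had 121, 82.7 and 76.9 and KF Al roots 57.1, 62.8 and 11.0. The 24 h Al array was the lowest of its variety in both cases. These arrays also had the lowest mean correlations with the other arrays (0.877 in GF and 0.779 in KF). The 24 h minus 6 h difference was -2.05 ± 0.56 (adjusted p = 0.13), and H-1 ferritin was next at -1.77 ± 0.65 (adjusted p = 0.238). Without the GF 24 h pair the 24 h effect rests on the KF 24 h pair alone. The differences of LOC100811575 and H-1 were then -2.42 and -2.82. Without the KF 24 h pair it rests on the GF 24 h pair alone, and those differences were -1.67 and -0.72. Such a fit has no spread at 24 h, so its calls and p-values are not given.

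Within single varieties few metal genes passed. In GF 0 of the 92 were called for Al (limma, 15 or 16.3 percent at an unadjusted p below 0.05), against 0.828 percent of all probe sets (15.4 percent unadjusted). In KF 2 were called (2.17 percent, against 5.48 percent of all), NRAMP3B as higher and NRAMP6B as lower. The KF count was 0 once KF at 12 h was left out, 3 once KF at 6 h was left out and 1 in each of the other 4 fits without 1 pair, and the GF count was 1 without the KF 24 h pair. The share of all probe sets called in these KF fits ran from 0.512 to 6.43 percent and was 2.87 percent in that GF fit. NRAMP6B was at -1.33 ± 0.29 in KF (adjusted p = 0.0441), kept without the KF 6 h pair and lost in the other 5 fits without 1 pair (adjusted p 0.0267 to 0.205), and at -0.84 ± 0.29 in GF (adjusted p = 0.237). The difference between the varieties in the Al effect was called for 0 of the 92 (limma, 6 or 6.52 percent at an unadjusted p below 0.05), against 0.00403 percent of all (4.43 percent unadjusted).

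The varieties were then compared at the same treatment. In control roots 1 of the 92 was called, as higher in KF (1.09 percent, against 1.26 percent of all). This was LOC100795511, zinc transporter 10-like (GLYMA20G02770, chromosome 20, 2356369 to 2358876). In GF the control roots had 3.77, 3.60 and 4.13 and KF control roots 7.41, 6.41 and 7.03 at 6, 12 and 24 h. With Al the values were 3.63, 3.81 and 3.80 in GF and 3.15, 5.28 and 3.75 in KF. Control roots did not overlap between varieties, and Al roots did. The difference of KF minus GF was 0.86 ± 0.16 in control roots (n = 3, limma adjusted p = 0.0443) and 0.08 ± 0.16 in Al roots (adjusted p = 0.876). The call was kept in 2 of 6 fits without 1 pair, those without the 12 h or the 24 h pair of Al arrays (adjusted p 0.0299 to 0.261). It was lost in each fit without a pair of control arrays, and after cyclic loess normalization (0.0516). All its intensities were under the background percentile.

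In Al roots 0 of the 92 differed between varieties (limma, 14 or 15.2 percent at an unadjusted p below 0.05), against 2.25 percent of all (15.6 percent unadjusted). Without the 24 h pair of Al arrays 3 were called, 1 higher and 2 lower in KF (3.26 percent, against 2.69 percent of all). The value for NRAMP3B was 0.96 ± 0.25 (adjusted p = 0.104), and that for the copper transporter gene LOC100788354 was -0.96 ± 0.26 (adjusted p = 0.106).

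Further genes of metal handling were taken from a list of titles that the rule left out, such as zinc and copper ATPases, copper chaperones, oligopeptide transporters and iron-sulfur proteins. Of 113 probe sets 97 were tested, 6 rose, 4 fell and 87 did not pass, a share of 10.3 percent against 13.8 percent of all. The text expression also took 2 lipid transfer-like proteins, 1 of which is among the risers. LOC100815324, cadmium/zinc-transporting ATPase 3-like, of the family of pumps that move zinc and cadmium, rose by 2.01 ± 0.21 (limma adjusted p = 0.0031), from 13.9 to 31.2 in the 6 control arrays to 46.3 to 108 in the 6 Al arrays. The copper-transporting ATPase RAN1-like gene LOC100798164 rose by 1.27 ± 0.28 (adjusted p = 0.0304) and the magnesium transporter NIPA2-like gene LOC100817349 by 1.40 ± 0.27 (adjusted p = 0.021). LOC100792167, oligopeptide transporter 7-like, was at -1.66 ± 0.20 (adjusted p = 0.0051), with 36.5 to 93.7 in control and 5.66 to 65.8 in Al arrays. Control and Al arrays of LOC100815324 did not overlap, and those of LOC100792167 did.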

How the data were processed

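Total RNA (0.1 µg per sample) was hybridised as biotin-labelled cDNA to 12 arrays, per the labels' protocols. The authors deposited normalized linear intensity values. The normalization method is not given in the sources used here. Gene titles, positions (assembly V1.0) and the several-gene mark of a probe set are other annotation columns, per the file headers. Of the 112 gene identifiers, 104 were found in the RefSeq gene table, which changed the symbols of 16 probe sets, and 7 tested probe sets can bind several genes. Another 24 columns carry numbers that no sample's labels hold and were left aside. The members and lists were chosen with earlier results of these data known.

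Log2 intensities were fitted with limma 3.58.1 in R 4.3.3 (lmFit, eBayes with trend), with a block for each variety and time and an Al coefficient per variety. For the change with time, the coefficient was per time. For varieties, blocks were treatment and time. Before fitting, the dimmest 0.25 of the main probe sets were dropped (mean log2 below 1.12). P-values were adjusted by Benjamini-Hochberg over 49646 probe sets. With 1 array per condition, p-values measure only the spread between these arrays, and the number of arrays limits precision. The fits were tested on simulated data in which 100 probe sets changed by a log2 of 1 and 100 by 2, alike in all Al arrays. Of these, 46 and 86 percent were called over both varieties, 21 and 65 percent in GF and 21 and 67 percent in KF. A gene that was not called can thus still have changed. Within each role class, called members (up to 3 rises and 3 falls) were named, or else the member with the largest ratio, together with members called between varieties and the 2 largest differences between times. Alternatives were the filter, an added offset, cyclic loess, no variance trend, no blocks, additive time, varieties fitted alone, and leaving out pairs. Files were read with the R package data.table (version 1.17.8), pandas 2.3.3 and numpy 2.4.6.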

Additional observations from a re-analysis of the deposited data

Results flagged for a closer look

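LOC100809524, vacuolar iron transporter homolog 4-like, was higher with Al in all 3 GF pairs and lower in all 3 KF pairs. Its KF minus GF difference in the Al effect was -0.51 on the log2 scale. LOC100788541, zinc transporter 1-like, showed the same pattern of signs, with a difference of -0.48. They were picked out by their signs alone, and limma's test of the difference called neither (adjusted p = 0.953 for both). Both lay under the background percentile on every array, and the probes of LOC100809524 can bind several genes.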

How the results depend on the processing

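The labels give no replicate numbers, and the fits pair arrays by variety and time, or by treatment and time. Over both varieties, the 12 metal probe sets called became 1 to 9 when 1 pair of arrays was left out. Of all probe sets 3.84 to 15.1 percent were called in those fits. Leaving out all arrays of 1 time was an alternative chosen after seeing the data, and gave 3 without 6 h, 0 without 12 h (limma, 17 at an unadjusted p below 0.05) and 6 without 24 h. The share of all probe sets called was then 5.47, 0.187 and 13.2 percent. The split into higher and lower was 8 and 4 under cyclic loess, 5 and 3 without blocks, and 3 and 7 without the variance trend. These settings called 13.5, 13 and 13.8 percent of all probe sets. Additive time gave 1 call in GF in place of 0 and 6 in KF in place of 2, and KF fitted alone gave 1, while the share of all probe sets called went from 0.828 to 2.72 percent in GF and from 5.48 to 13.3 and 0.812 percent in KF. Without 1 pair, GF gave 0 to 1 (0.0101 to 2.87 percent of all) and KF 0 to 3 (0.512 to 6.43 percent of all). Without the 6, 12 or 24 h arrays KF gave 0, 0 and 1 (1.6, 0 and 6.63 percent of all). The 24 h minus 6 h difference gave 0 calls without the GF or the KF 12 h pair (0.977 and 0.951 percent of all). Without a 6 h or 24 h pair, 1 of the times compared rests on 1 pair, so calls are not given. The variety difference in control roots gave 0 under cyclic loess and without the variance trend (1.31 and 1.18 percent of all). It gave 0 without the 6, 12 or 24 h arrays (0.218, 0.151 and 1.24 percent of all). Without 1 pair it gave 0 to 1 (0.25 to 2.53 percent of all). In Al roots it gave 0 to 3 without 1 pair (1.01 to 2.69 percent of all) and 3 without the 24 h arrays (2.74 percent of all). The nicotianamine synthase gene LOC100814069 changed sign without the 6 h arrays (0.042) and in 2 fits without 1 pair (0.0003 and 0.0090), the range over all such fits being -0.082 to 0.0090. The KF minus GF difference in the Al effect was called for 0 in every alternative run (limma, 2 to 8 at an unadjusted p below 0.05). Of all probe sets 0 to 0.0121 percent were called for it. Counts over all probe sets moved too, and the cause of these changes was not tested. Signal near background limits most of these genes.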

Other observations

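Of the other metal handling genes called for Al over both varieties (limma), LOC100811801, the frataxin-like gene of mitochondrial iron-sulfur assembly, was higher (0.61 on the log2 scale, adjusted p = 0.0245). The copper chaperone ATOX1-like gene LOC100799342, whose probes can bind several genes, was higher as well (0.81, adjusted p = 0.0494). The iron-sulfur protein NUBPL-like genes LOC100817299 (-0.83, adjusted p = 0.0348) and LOC100802953 (-0.61, adjusted p = 0.0467) were lower. So was the magnesium transporter NIPA2-like gene LOC100799756 (-0.67, adjusted p = 0.0333).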
